A study of Populus tremula x Populus alba with 72 samples.

Results

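The fully expanded leaves of a hybrid poplar during the first 8 days at 80 ppb ozone were compared with expanded leaves kept in charcoal-filtered air. The comparison covers 16 of the 72 libraries of the series, chosen by their labels as expanded leaf, sampled on day 2 or day 8, in 80 ppb or control air. The 4 groups, of 4 libraries each, are 80 ppb on day 2, control on day 2, 80 ppb on day 8 and control on day 8. All trees were of clone INRAE 717-1B4 (Populus tremula x alba), propagated in vitro and 2.5 months old. Control chambers received charcoal-filtered air, and treated chambers the same air with ozone added for 13 h per day. The clone is a single genotype. The labels do not tie a replicate number to a tree or chamber, and each p-value is taken over the spread among libraries, which may be technical.

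Ozone enters a leaf through its stomata and breaks down in the wall space into reactive oxygen species. Leaf cells are known to answer with antioxidant and detoxifying enzymes, stress hormones and, at higher doses, cell death. Expanded leaves have finished building their blade, and growing leaves have not. The deposited table gives Potri identifiers without names or descriptions, and no annotation or sequence was used here, so no function is assigned to any gene below. For the same reason, leaf marker genes could not be checked, and levels are compared between libraries for 1 gene, never between genes. In whole leaves, fewer cells of a type and less RNA per cell cannot be told apart.

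The 8 libraries at 80 ppb had between 31.3 M and 42.2 M reads in genes (M, mega-reads), and the 8 control libraries between 35.1 M and 54.3 M. A library's nearest neighbour by rank correlation was of the same leaf position and day for 16 of 16 libraries. It was of the same air for 7 of 8 libraries on day 2 and for 0 of 8 on day 8. The first principal component of the 16 libraries carried 54.9% of the variance and separated day 2 from day 8. On the second, which carried 6.91%, 80 ppb day 8 replicates 3 and 4 lay at -63.9 and -41.6, while the other 14 lay between -12.4 and 42.2. The nearest neighbour of both was a library at 100 ppb, replicate 2 of day 8, with 30.1 M reads. Replicates 3 and 4 had 32.4 M and 31.3 M, the fewest reads of the 16 libraries. Whether depth plays a part was not tested. For each comparison that includes day 8, the number of genes that passed is also given without 80 ppb replicates 3 and 4. So are the day 13 gene lists and the correlations, but not every other value of day 8. This choice was made after seeing the data. The median SD per gene on the log2 scale was 0.199 at 80 ppb and 0.181 in control leaves on day 2, and 0.187 at 80 ppb and 0.204 in control leaves on day 8.

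At 80 ppb, few genes differed from control on either day. Of 27780 genes tested, 3 passed on day 2 (0.0108%), 1 higher (0.0036%) and 2 lower (0.0072%). On day 8, 5 passed (0.018%), 4 higher (0.0144%) and 1 lower (0.0036%). With both days combined, as the mean of the 2 daily changes, 12 passed (0.0432%), 5 higher (0.018%) and 7 lower (0.0252%). In all, 14 genes passed at least 1 of these tests. The 80 ppb and control libraries did not overlap for 14 of the 14 on day 2 (4.45% of all genes) and for 10 on day 8 (2.88%), in the libraries that chose them. The threshold was an adjusted p under 0.05 in limma, with Benjamini-Hochberg adjustment over all tested genes. At an unadjusted p under 0.05 there were 1224 genes on day 2 (4.41%) and 919 on day 8 (3.31%). With the days combined there were 1041 (3.75%). In each, 5% would be expected if no gene had changed. These shares rest on a spread estimated over all 18 groups. With the compared libraries fitted alone, there were 2089 genes on day 2, 1361 on day 8 and 1719 with the days combined. The filter was applied again within those libraries, so at most 27780 genes were tested. The day 2 and combined counts were above 5% even of all 27780. Whether these shares exceed 5% therefore depends on the fit. The 95% interval of the change lay within 2-fold of control for 76.7% of genes on day 2, 76.5% on day 8 and 87.4% with the days combined. For the remaining genes a 2-fold change was not excluded at this number of libraries.

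On day 2, Potri.006G155500 was the gene that rose. It had 3990, 6800, 4290 and 6290 normalised counts in 80 ppb leaves, against 1680, 1880, 2410 and 1730 in control leaves. Every 80 ppb library lay above every control library. The change was 1.45 ± 0.23 on the log2 scale (SE), or 2.73-fold, with an adjusted p of 0.00188. By day 8 the groups overlapped, at 6920, 6720, 6420 and 6850 normalised counts in 80 ppb leaves and 7560, 7110, 6340 and 6710 in control leaves. The day 8 change was -0.04 ± 0.23. The average at 80 ppb on day 2, 5340 ± 1410 normalised counts, lay between the control averages of 1920 ± 338 on day 2 and 6930 ± 524 on day 8 (SD, n = 4 each).

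Potri.005G259300 and Potri.007G120002 were the genes that fell on day 2. Potri.005G259300 had 28.3, 22.3, 24.5 and 34.7 normalised counts in 80 ppb leaves, against 138, 61.8, 77.9 and 72.0 in control leaves. The groups did not overlap, and control replicate 1 was the highest of all. The log2 change was -1.58 ± 0.26 (adjusted p = 0.00188), and without control replicate 1 the gene no longer passed (adjusted p = 0.082). Potri.007G120002 had 20.5, 10.6, 13.3 and 12.6 normalised counts in 80 ppb leaves, against 46.4, 33.2, 31.8 and 42.1 in control leaves. Its log2 change was -1.39 ± 0.25 (adjusted p = 0.00887), again without overlap, and it was lost when any of 5 of the 8 libraries was left out. On day 8 its values crossed, from 17.5 to 24.1 normalised counts in 80 ppb leaves and from 15.6 to 29.9 in control leaves, a log2 change of -0.18 ± 0.25. Neither gene passed with the libraries of day 2 fitted alone (adjusted p = 0.0771 for Potri.005G259300 and 0.13 for Potri.007G120002) or with the leaves of days 2 and 8 alone (0.266 each), and Potri.007G120002 did not pass with equal totals (adjusted p = 0.0629). Both genes were low, and counting error is a larger share of their spread than for highly expressed genes.

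**Figure D1:**
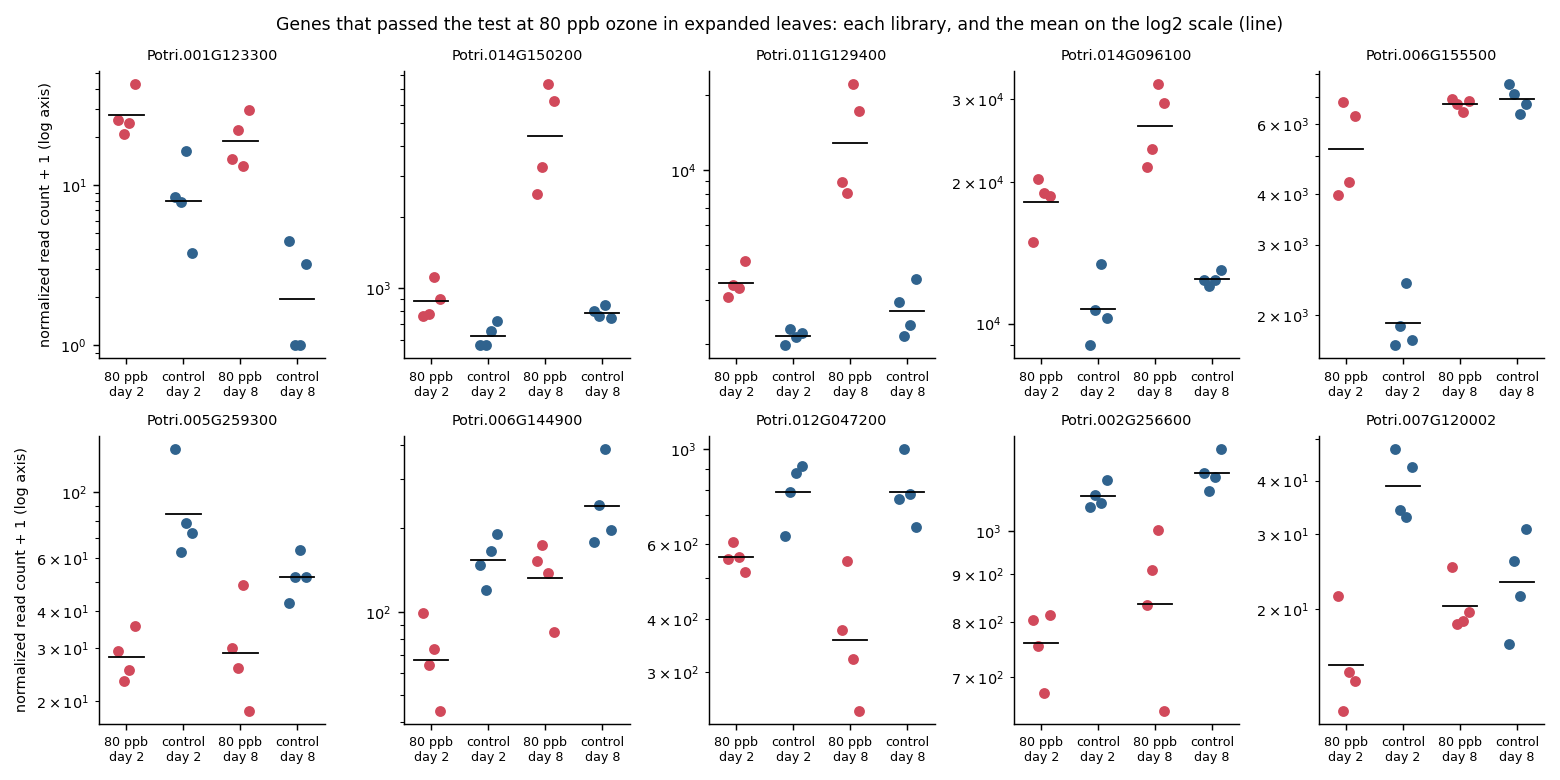
Normalised read count plus 1 (log axis) of 10 genes that passed a test, in each expanded leaf library at 80 ppb or in control air. Days 2 and 8 are shown, with lines at the group means on the log2 scale. Potri.010G046800, which also passed, is not shown. Potri.006G155500 separates on day 2 and overlaps on day 8, while Potri.001G123300, Potri.014G150200 and Potri.011G129400 have the largest changes on day 8 (3.27, 2.48 and 2.25 on the log2 scale).

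On day 8, 4 genes rose and 1 fell, and they were other genes than the 3 of day 2. Potri.014G150200 had 2510, 3260, 7360 and 6190 normalised counts in 80 ppb leaves, against 795, 762, 844 and 744 in control leaves. The lowest 80 ppb library stood well above the highest control library, and replicates 3 and 4 were the highest. The log2 change was 2.48 ± 0.33, or 5.59-fold, with an adjusted p of 1.1e-05. Potri.011G129400 had 8900, 8080, 22200 and 17200 normalised counts in 80 ppb leaves, against 2930, 2140, 2370 and 3630 in control leaves. Its log2 change was 2.25 ± 0.34 (adjusted p = 0.000192), and the same 2 libraries were again the highest.

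Potri.014G096100 had the smallest SE of the 5 genes of day 8, where each SE rests on the spread over all 18 groups. It had 21500, 23500, 32400 and 29500 normalised counts in 80 ppb leaves, against 12400, 12000, 12400 and 13000 in control leaves. The change of 2.11-fold, 1.08 ± 0.18 on the log2 scale, had an adjusted p of 0.0011. Potri.001G123300 had 13.5, 21.2, 12.2 and 28.6 normalised counts in 80 ppb leaves, 74 reads in all, against 3.47, 0, 0 and 2.24 in control leaves, 7 reads in all. It was near 0 in control leaves, and the groups did not overlap. Its log2 change of 3.27 ± 0.52 (adjusted p = 0.000452) depends on the pseudocount added before taking logs, here 1. With a pseudocount of 8 it was 1.49 and no longer passed (adjusted p = 0.117).

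Potri.012G047200 was the gene that fell on day 8. It had 376, 546, 321 and 243 normalised counts in 80 ppb leaves, against 762, 999, 782 and 655 in control leaves. The groups did not overlap, and replicate 4 at 80 ppb was the lowest. The log2 change was -1.15 ± 0.22 (adjusted p = 0.0135), and it did not pass when any of 4 of the 8 libraries was left out.

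Without 80 ppb replicates 3 and 4, which stood apart, no gene passed on day 8 (232 at an unadjusted p under 0.05). The 5 changes kept their direction with the 2 remaining libraries at 80 ppb, at 3.20 for Potri.001G123300, 1.86 for Potri.014G150200, 1.65 for Potri.011G129400, 0.85 for Potri.014G096100 and -0.80 for Potri.012G047200 on the log2 scale. In a model of the 8 libraries of day 8 alone, no gene passed either (1361 at an unadjusted p under 0.05). In a model of the leaves of days 2 and 8, without day 13, 3 of the 5 passed. These were Potri.014G150200 and Potri.011G129400 (adjusted p = 0.02 each) and Potri.014G096100 (adjusted p = 0.0482).

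**Figure D2:**
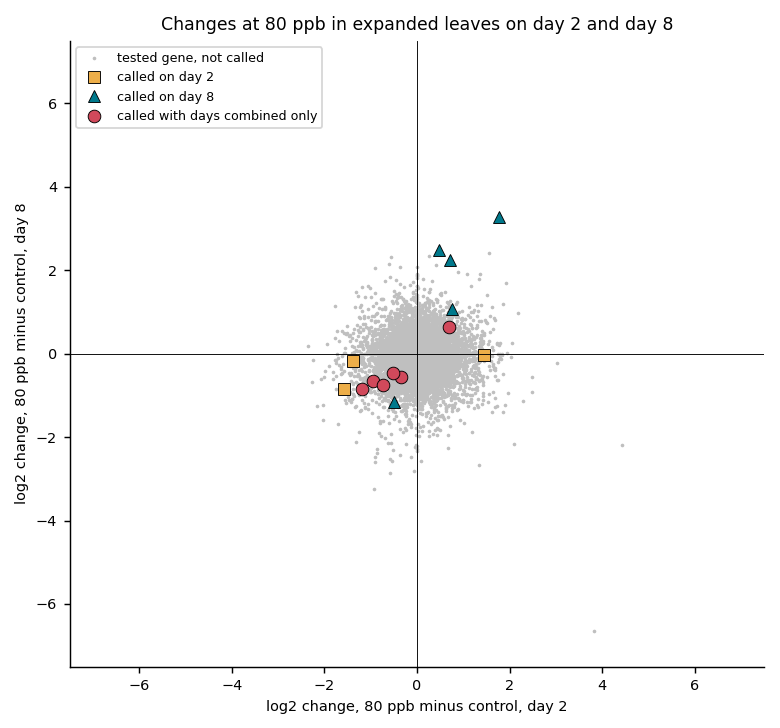
Log2 change at 80 ppb against control on day 2 (x axis) and day 8 (y axis) for the 27780 genes tested, 1 point per gene. Genes called on day 2 are squares, on day 8 triangles and with the days combined only circles, and the 12 combined genes lie in the upper right and lower left quadrants.

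With days 2 and 8 combined, 8 libraries stood against 8. Since the test averages the daily changes, it favours genes that moved the same way on both days, and a shared sign among the 12 says nothing further. Their changes ran from 0.34 to 1.77 on day 2 and from 0.46 to 3.27 on day 8, counted in each gene's own direction. Just inside the threshold lay adjusted p-values of 0.0258 and 0.0394, and just outside 0.0652 and 0.0726.

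The 2 largest rises with the days combined were those of Potri.001G123300 and Potri.014G150200. Potri.001G123300 had 24.4, 20, 23.5 and 42.1 normalised counts in 80 ppb leaves of day 2, against 7.39, 6.87, 15.4 and 2.80 in control leaves. Added to the day 8 values, this gave a log2 change of 2.52 ± 0.37 (adjusted p = 7.64e-05). Potri.014G150200 had 760, 775, 1110 and 897 normalised counts in 80 ppb leaves of day 2, against 570, 571, 654 and 725 in control leaves. Its groups were close on day 2 but did not overlap, and the combined log2 change was 1.48 ± 0.23 (adjusted p = 0.000251).

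Potri.014G096100 had 14900, 20300, 19000 and 18700 normalised counts in 80 ppb leaves of day 2, against 8990, 10700, 13400 and 10300 in control leaves. The daily changes were close, 0.75 ± 0.18 on day 2 and 1.08 ± 0.18 on day 8, and the combined one of 0.92 ± 0.13 had the smallest adjusted p of the 12 genes, 4.43e-05. Potri.011G129400 had 3070, 3430, 3340 and 4290 normalised counts in 80 ppb leaves of day 2, against 1970, 2290, 2120 and 2200 in control leaves. Its combined log2 change was 1.48 ± 0.24 (adjusted p = 0.000444), most of it from day 8.

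The 2 largest falls were those of Potri.005G259300 and Potri.006G144900. Potri.005G259300 had 29.0, 24.9, 47.7 and 17.6 normalised counts in 80 ppb leaves of day 8, against 41.6, 51.0, 62.7 and 50.9 in control leaves, where replicate 3 at 80 ppb reached into the control range. The combined log2 change was -1.21 ± 0.19 (adjusted p = 0.000182). Potri.006G144900 had 97.7, 63.4, 72.5 and 43.1 normalised counts in 80 ppb leaves of day 2, against 146, 119, 164 and 190 in control leaves. On day 8 it had 152, 173, 137 and 83.5 normalised counts at 80 ppb, against 178, 242, 385 and 196 in control leaves, just short of overlap. Its combined log2 change was -1.02 ± 0.21 (adjusted p = 0.0193), and it was lost when any of 5 of the 16 libraries was left out.

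Potri.002G256600 fell by less, with more scatter on day 8 at 80 ppb (SD 152) than in control leaves (SD 47.6). It had 803, 755, 673 and 813 normalised counts in 80 ppb leaves of day 2, against 1060, 1090, 1070 and 1130 in control leaves. On day 8 it had 833, 908, 1000 and 644 normalised counts at 80 ppb, against 1150, 1100, 1140 and 1220 in control leaves. No 80 ppb library reached a control library on either day, and the combined log2 change was -0.49 ± 0.09 (adjusted p = 0.00219). Potri.012G047200 had 553, 605, 557 and 515 normalised counts in 80 ppb leaves of day 2, against 624, 791, 878 and 911 in control leaves, and its combined log2 change was -0.83 ± 0.16 (adjusted p = 0.00569).

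The remaining 4 of the 12 genes, 1 higher and 3 lower, had combined changes of at most 0.81 in size on the log2 scale. Without 80 ppb day 8 replicates 3 and 4, 4 of the 12 genes passed and no other gene did. These were Potri.001G123300 (2.49, adjusted p = 0.00217), Potri.014G096100 (0.80, adjusted p = 0.00491), Potri.005G259300 (-1.24, adjusted p = 0.0017) and Potri.002G256600 (-0.46, adjusted p = 0.0394). The same 4 passed in each of the other alternatives tried, while 7 of the 12 passed without 80 ppb day 8 replicate 4 alone.

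No gene passed the test of a change in the response between day 2 and day 8 (limma, 1074 at an unadjusted p under 0.05). The edgeR test also called 0, and DESeq2 called 3. Without 80 ppb day 8 replicates 3 and 4, limma again called 0 (566 at an unadjusted p under 0.05). Among genes whose change was more positive on day 8, the smallest unadjusted p belonged to Potri.014G150200, at 2.00 ± 0.47 on the log2 scale (adjusted p = 0.756). Next was Potri.001G322100, which averaged 58.9 ± 14.6 normalised counts in 80 ppb leaves and 93.6 ± 6.9 in control leaves on day 2. On day 8 it averaged 72.8 ± 11.9 at 80 ppb and 52.4 ± 20.4 in control leaves (SD, n = 4 each), a difference between days of 1.22 ± 0.32 (adjusted p = 1). Among genes whose change was less positive on day 8, Potri.006G155500 differed by -1.49 ± 0.33 (adjusted p = 0.756). Potri.008G187900 averaged 454 ± 66 normalised counts at 80 ppb and 301 ± 47 in control leaves on day 2, and 453 ± 85.7 at 80 ppb and 585 ± 68.3 in control leaves on day 8 (SD, n = 4 each), a difference of -0.97 ± 0.23 (adjusted p = 0.756). The interval of the difference between days lay within 2-fold for 63.3% of genes, and for the others a shift of more than 2-fold was not excluded.

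The libraries of day 13, which did not enter the combined change that chose the 12 genes, showed them moving in the same directions. In expanded leaves at 80 ppb on day 13, 12 of 12 had the sign of days 2 and 8, and 9 passed, against 1.75% of all genes tested. All 80 ppb libraries of day 13 lay on that side of all control libraries for 10 of the 12, against 5.69% of all genes. These values come from other leaves, though in the same fit with a shared estimate of the spread. The median SD per gene on the log2 scale was 0.308 in control expanded leaves of day 13, the largest of the 18 groups. At 80 ppb it was 0.209. With the 8 libraries of day 13 fitted alone, 0 of the 12 passed, and 5 passed without 80 ppb replicate 1 or without 80 ppb replicate 2 of day 13.

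Among the genes that rose, Potri.014G150200 had 4630, 5360, 5760 and 4060 normalised counts in 80 ppb expanded leaves of day 13, against 545, 1260, 595 and 1070 in control leaves. The log2 change was 2.59 ± 0.33 (adjusted p = 2.98e-06), close to that of day 8. Potri.011G129400 had 17500, 27400, 23400 and 12600 normalised counts at 80 ppb, against 1810, 5210, 1990 and 5820 in control leaves, a log2 change of 2.59 ± 0.34 (adjusted p = 4.21e-06). Potri.001G123300 changed by 2.78 ± 0.52 (adjusted p = 0.00361) and Potri.014G096100 by 1.13 ± 0.18 (adjusted p = 0.000338).

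Among the genes that fell, Potri.012G047200 had 256, 224, 476 and 398 normalised counts in 80 ppb expanded leaves of day 13, against 749, 575, 691 and 525 in control leaves. The log2 change was -0.96 ± 0.22 (adjusted p = 0.0177). Potri.002G256600 changed by -0.59 ± 0.12 (adjusted p = 0.00753) and Potri.006G144900 by -1.15 ± 0.29 (adjusted p = 0.0316). Potri.005G259300, the gene with the largest combined fall, had 29.6, 60.1, 54.4 and 40.3 normalised counts at 80 ppb on day 13, against 66.0, 57.4, 75.7 and 56.0 in control leaves. These groups overlapped, and the log2 change of -0.50 ± 0.26 did not pass (adjusted p = 0.304). The genes called on day 2 alone did not pass on day 13 either, at 0.61 ± 0.23 (adjusted p = 0.149) for Potri.006G155500 and -0.30 ± 0.25 (adjusted p = 0.557) for Potri.007G120002.

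**Figure D3:**
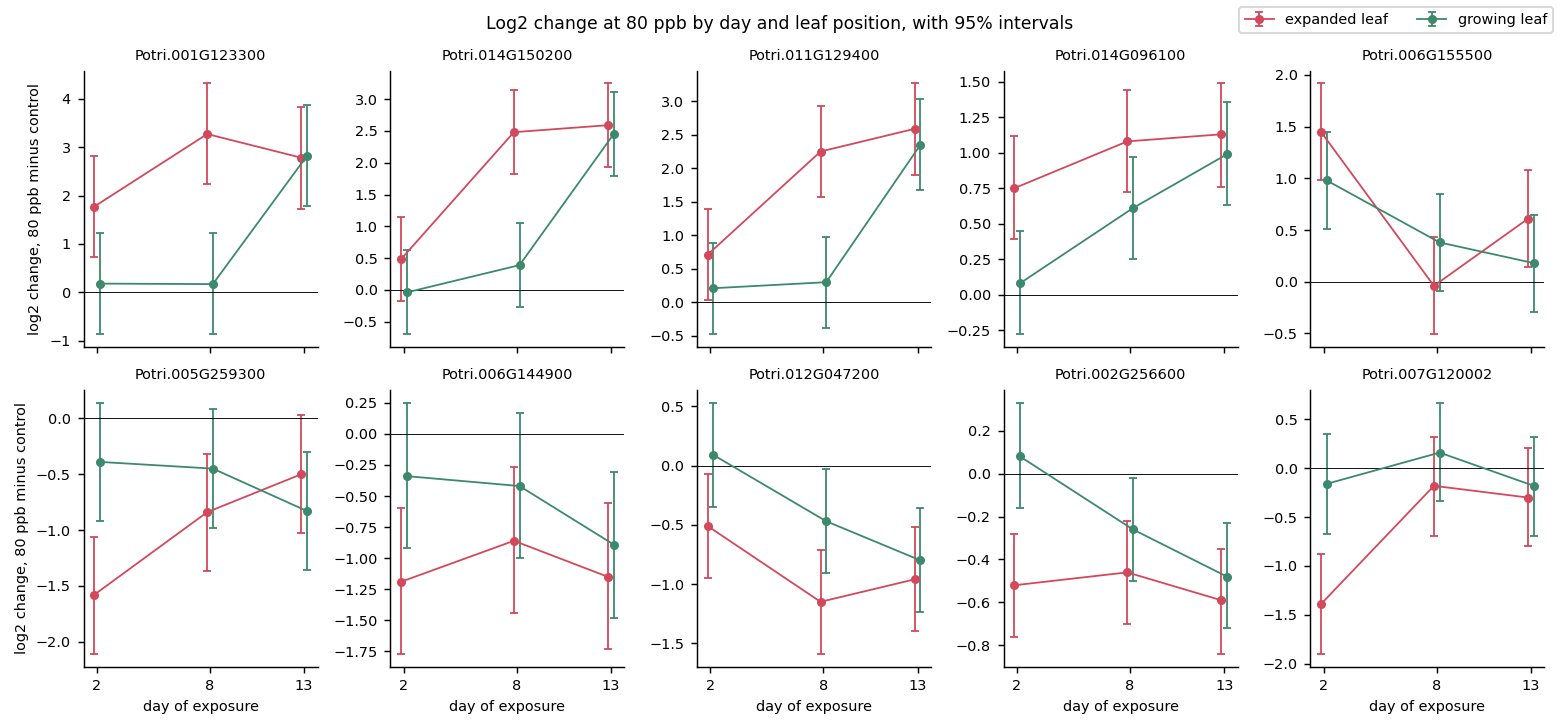
Log2 change at 80 ppb against the control of the same day and leaf position, on days 2, 8 and 13 of exposure, for expanded leaves (red) and growing leaves (green), with bars at the 95% intervals. In growing leaves the 4 genes of the upper left panels stay near 0 on day 2 and lie between 0.99 and 2.82 on day 13.

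Growing leaves, sampled on the same days, showed little of this on day 2. At 80 ppb, 8 of the 12 genes had the same sign as in expanded leaves on day 2 and 12 of 12 on day 8, and 0 passed on either day, as for all genes tested (584 and 1240 at an unadjusted p under 0.05, with smallest adjusted p-values of 0.06 and 0.0705). On day 13, 4 of the 12 passed in growing leaves, and these were the 4 genes that passed there among all 27780 (0.0144%). The 80 ppb and control libraries of growing leaves did not overlap for 12 of the 12 on day 13, against 3.71% of all genes. They did not overlap for 1 of the 12 on day 2 (1.94% of all genes) and 1 on day 8 (4.5%). Without growing leaf replicate 2 at 80 ppb, 2 of the 12 passed, and with those 8 libraries fitted alone, 1 did.

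The 4 genes were the 4 that rose on day 8 in expanded leaves. Potri.014G150200 had 4410, 4200, 6180 and 3080 normalised counts in growing leaves at 80 ppb on day 13, against 903, 749, 785 and 736 in control leaves, a log2 change of 2.45 ± 0.33 (adjusted p = 1.55e-05). On day 8 its normalised counts in growing leaves were 515, 446, 393 and 1100 at 80 ppb and 376, 504, 497 and 362 in control air. At 80 ppb, replicate 4 stood well above the rest, and replicate 1 lay narrowly above the highest control library. Potri.011G129400 changed by 2.35 ± 0.34 on day 13 in growing leaves (adjusted p = 6.11e-05), Potri.001G123300 by 2.82 ± 0.52 (adjusted p = 0.00872) and Potri.014G096100 by 0.99 ± 0.18 (adjusted p = 0.00864).

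The test of the difference between the 2 leaf positions over days 2 and 8 called no gene (limma, 425 at an unadjusted p under 0.05, and 0 by edgeR), nor did it without 80 ppb day 8 replicates 3 and 4 (313 at an unadjusted p under 0.05). Nothing is therefore shown to be particular to expanded leaves. The nearest were Potri.001G123300, whose change was larger in expanded leaves by 2.35 ± 0.52 on the log2 scale (adjusted p = 0.936), and Potri.014G150200, by 1.31 ± 0.33 (adjusted p = 1). In the other direction, Potri.019G060210 differed by -1.88 ± 0.48 and Potri.001G198501 by -0.85 ± 0.21 (adjusted p = 1 for each), both at no more than 38.4 normalised counts in any library of these groups. On day 2, Potri.001G123300 had 43.3, 69.6, 59.4 and 66.0 normalised counts in 80 ppb growing leaves, against 53.8, 90.1, 35.1 and 41.3 in control growing leaves. Expanded leaves at 80 ppb averaged 27.5 ± 9.90 that day (SD, n = 4), below each control library of growing leaves. Potri.006G155500 had 907, 1140, 941 and 1130 normalised counts in 80 ppb growing leaves of day 2, against 557, 541, 468 and 511 in control growing leaves. That change of 0.98 ± 0.23 did not pass (adjusted p = 0.462), although the groups did not overlap.

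Expanded leaves at 100 ppb shared their controls with those at 80 ppb, so the 2 changes are only set side by side. For Potri.011G129400 the log2 change on day 2 was 0.71 ± 0.34 at 80 ppb and 2.61 ± 0.34 at 100 ppb, and on day 8 it was 2.25 ± 0.34 and 3.37 ± 0.34. For Potri.014G150200 it was 0.48 ± 0.33 at 80 ppb and 1.84 ± 0.33 at 100 ppb on day 2, and 2.48 ± 0.33 and 3.11 ± 0.33 on day 8. For Potri.014G096100 the values were 0.75 ± 0.18 at 80 ppb and 1.47 ± 0.18 at 100 ppb on day 2, and 1.08 ± 0.18 and 1.06 ± 0.18 on day 8. Potri.006G155500 changed by 1.45 ± 0.23 at 80 ppb and 1.36 ± 0.23 at 100 ppb on day 2, nearly the same size. Potri.005G259300 was further from control at 80 ppb on day 2, at -1.58 ± 0.26, than at 100 ppb, at -0.58 ± 0.26.

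Set directly against each other over days 2 and 8, 100 ppb leaves differed from 80 ppb leaves in 4594 genes (16.5%), 2898 higher at 100 ppb (10.4%) and 1696 lower (6.11%). The share of higher genes was 63.1%, and 77.4% when libraries were scaled to equal totals. Without 80 ppb day 8 replicates 3 and 4, 4581 genes differed, 2771 higher at 100 ppb and 1810 lower. The count was 1568 with the compared libraries fitted alone, 2563 without 100 ppb day 2 replicate 1, 2348 without 100 ppb day 8 replicate 1 and 2336 without 100 ppb day 8 replicate 4. Since the 80 ppb libraries also chose the 12 genes, their differences here are a description. Of the 12, 3 passed with values further from control at 100 ppb, 1 passed with values nearer to control and 8 did not pass. Potri.011G129400 was higher at 100 ppb by 1.51 ± 0.24 on the log2 scale and Potri.014G150200 by 0.99 ± 0.23. Potri.005G259300 had 47.6, 73.2, 50.1 and 53.7 normalised counts at 100 ppb on day 2, all above the 22.3 to 34.7 of the 80 ppb leaves, and over both days it was higher at 100 ppb by 0.71 ± 0.19 (adjusted p = 0.00723). Potri.007G120002 was also higher at 100 ppb, by 0.52 ± 0.18 (adjusted p = 0.0392). It is not among the 12, but its 80 ppb libraries of day 2 chose it, so this too is a description. The difference was 0.78 ± 0.25 on day 2 and 0.25 ± 0.25 on day 8.

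**Figure D4:**
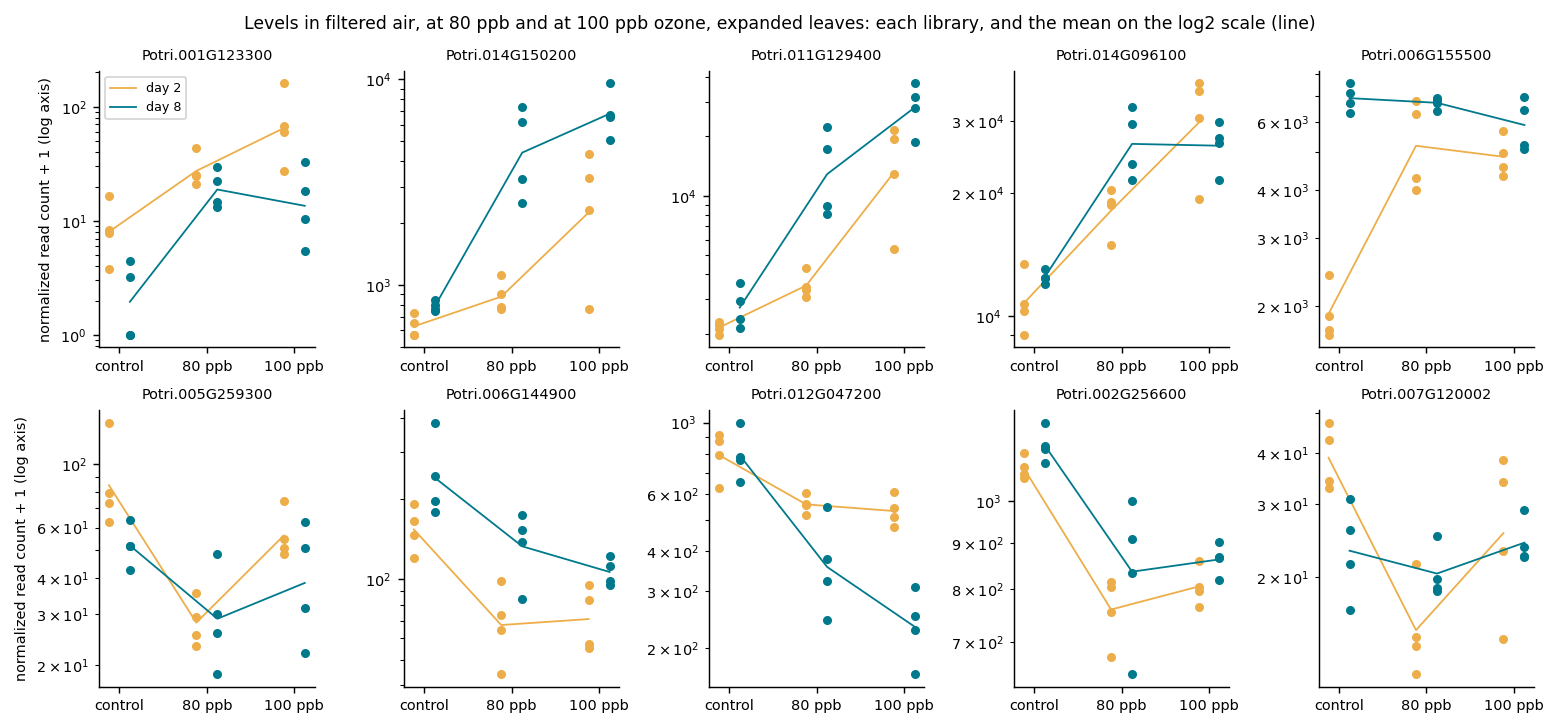
Normalised read count plus 1 (log axis) of the same 10 genes in expanded leaves in filtered air, at 80 ppb and at 100 ppb. There is 1 point per library, and lines join the group means on the log2 scale of day 2 (yellow) and day 8 (blue). The means of Potri.011G129400 step up with each dose on both days, while those of Potri.005G259300 are lowest at 80 ppb on both days. For both genes, the 80 and 100 ppb libraries overlap on day 8.

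The 485 genes that passed at 80 ppb in expanded leaves on day 13 were read in the libraries of days 2 and 8. Those libraries did not enter the day 13 change, though they shared its fit and its estimate of the spread. Of the 237 that were higher on day 13 (0.853% of genes tested), 227 (95.8%) were above control on day 8, with a median log2 change of 0.41, and 149 (62.9%) on day 2, with a median of 0.10. Of the 248 that were lower on day 13 (0.893%), 11 (4.44%) were above control on day 8, with a median of -0.25, and 65 (26.2%) on day 2, with a median of -0.12. Among all genes tested, 46.4% were above control on day 8 (median -0.01) and 48.9% on day 2 (median 0). Of these 485 genes, 5 passed on day 8 (0.018% of all genes tested) and 0 on day 2 (0.0108%).

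By library, the 237 genes higher on day 13 had a median difference from the control mean of 0.17, 0.18, 0.63 and 0.63 in 80 ppb leaves of day 8, replicates 1 to 4, against 0, -0.01, -0.13 and 0.15 in control leaves. The 4 libraries at 80 ppb all lay above the 4 controls, replicates 1 and 2 narrowly so. Replicates 3 and 4 are those that stood apart on the second component. Without them, 181 of the 237 (76.4%) were above control on day 8, with a median of 0.20, and 41 of the 248 (16.5%), with a median of -0.14, against 47.8% of all genes tested (median -0.01). The 248 genes lower on day 13 had medians of -0.17, -0.09, -0.23 and -0.52 in 80 ppb leaves of day 8, against -0.02, 0.01, 0.09 and -0.11 in control leaves, where replicate 2 at 80 ppb fell within the control range. On day 2 the higher genes had medians of 0.08, 0.22, -0.01 and 0.10 in 80 ppb leaves, against -0.06, 0.07, 0.02 and -0.03 in control leaves, which overlap. The lower genes had medians of -0.10, -0.17, -0.10 and -0.13 in 80 ppb leaves of day 2, against 0.01, -0.07, 0.06 and 0.01 in control leaves, without overlap.

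**Figure D5:**
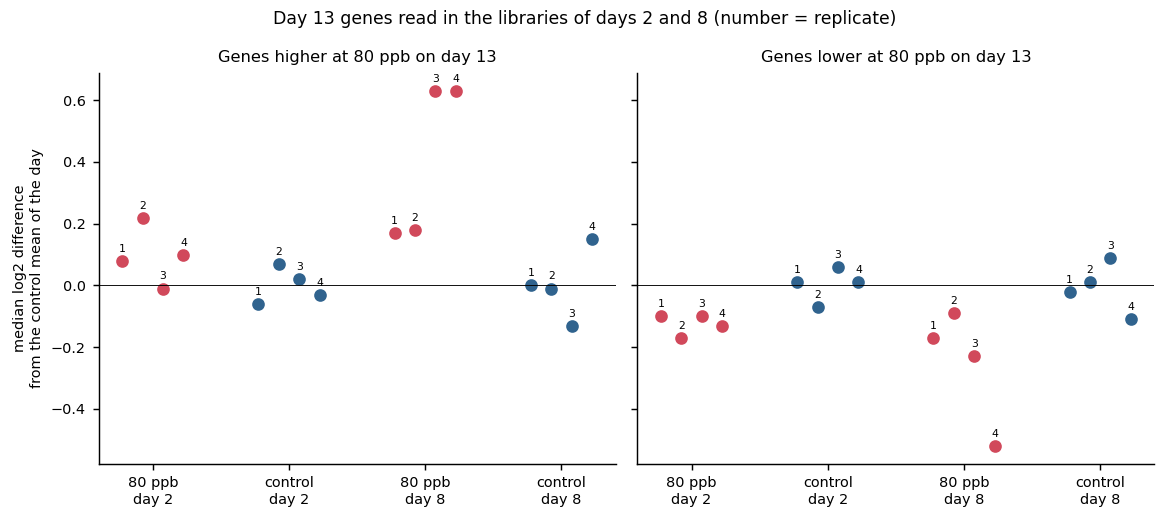
Median log2 difference from the control mean of the same day over the 237 genes higher (left) and the 248 genes lower (right) at 80 ppb on day 13, in each expanded leaf library of days 2 and 8, with the replicate number above its point. Replicates 3 and 4 at 80 ppb on day 8 lie at 0.63 in the left panel, the highest of the 16.

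Across the 27780 genes, the changes at 80 ppb on day 8 and day 13, which share no library, had a Spearman correlation of 0.48, and 69.4% of genes had the same sign. Without 80 ppb day 8 replicates 3 and 4 the correlation was 0.21, with 60.6% of the same sign. The changes of day 2 and day 8 had a correlation of -0.06, with 46.6% of the same sign (-0.11 and 44.7% without that pair), and those of day 2 and day 13 had 0.03, with 50%. These correlations are across genes, which are not independent replicates, and each change shares its library set over all genes.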

How the data were processed

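Poly(A)-selected leaf RNA was sequenced in pairs with a stranded kit, per the labels' protocols. The deposited signal per gene is a normalized count: in each library 100% of values were whole multiples of 1 step (tolerance 0.01 reads), so reads divided by 1 factor per library. DESeq2 1.24.0, TopHat2 2.12, Subread 1.6.1 and featureCounts are named, without roles, in the submitters' processing notes, and no genome build is named there.

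Of 34699 genes, the 27780 that reached a value of 10 in 4 or more of the 72 libraries were tested. Log2 of the value plus 1 was fitted in limma 3.58.1 (R 4.3.3) with a mean for each of 18 groups (54 residual degrees of freedom), using eBayes moderation with a trend. Tests are two-sided, Benjamini-Hochberg adjusted within each contrast and called at 0.05, and changes are on that log2 scale, which understates low genes. The combined change is the mean of the daily changes. No 2 replicates of the 4 groups agreed within sampling noise. Replicate numbers were not used as a block, since the labels do not say what they mark.

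Named genes are, for each comparison, up to 2 higher and 2 lower with the largest change (the smallest p where none passed). Potri.011G129400, Potri.014G096100, Potri.002G256600 and Potri.010G046800 were added after their values were seen. Comparisons and lists were chosen with earlier results of these data known. Gene lists by product description and cell type markers could not be made without names. Alternatives were TMM scaling, equal totals, pseudocounts of 0.25 and 8, a filter at 50 or none, robust eBayes, fewer libraries in the fit, a replicate block, each library left out, and edgeR 4.0.16 and DESeq2 1.42.0 on the recovered reads.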

Additional observations from a re-analysis of the deposited data

Results flagged for a closer look

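In expanded leaves of day 2, Potri.010G046800, 1 of the 12 genes that passed with the days combined, had a library far from the others in each group. At 80 ppb, replicate 1 had 1340 normalised counts and the other 3 had 1190 to 1210. In control leaves, replicate 2 had 1820 and the other 3 had 2120 to 2150. Such a gap was looked for in 72 groups of 4 values and found in these 2, where chance alone flags about 1 group in 20. The groups did not overlap with or without these libraries.

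Potri.012G047200 had changes of opposite sign in the leaf positions on day 2, though neither passed. In expanded leaves the change at 80 ppb was -0.51 ± 0.22 on the log2 scale, with all 4 libraries below the control mean. In growing leaves it was 0.09 ± 0.22, with all 4 above the control mean. Those 80 ppb growing leaves, at 1490 to 1640 normalised counts, lay within the control range of 1300 to 1670. It was the single such case among 42 pairs of groups looked at. This difference was not tested for day 2 alone, and over days 2 and 8 the difference between leaf positions was -0.64 ± 0.22 (adjusted p = 1 in limma).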

How the results depend on the processing

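No named gene's change in its own comparison reversed sign under the alternatives run for it. The causes of the shifts below were not tested. Fits of the compared libraries alone, or of the leaves of days 2 and 8 alone, applied the filter again within them. The combined and the 100 against 80 ppb tests of the compared libraries alone used additive terms for day and air, not group means. With the compared libraries fitted alone, day 2 gave 16 calls (1 of the 3 among them), day 8 gave 0, the combined test 19 (10 of the 12), 100 against 80 ppb 1568, the difference between leaf positions 1, and of the 12 genes 0 passed on day 13 in expanded leaves and 1 in growing leaves. With the leaves of days 2 and 8 alone, day 2 gave 1, day 8 gave 3 and the change between days 1. DESeq2 gave 8, 9 and 25 on day 2, on day 8 and combined, and 3 for the change between days; edgeR gave 3, 5 and 13. Without both 80 ppb day 8 libraries that stand apart, day 8 gave 0 and the combined test 4.

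With each library left out in turn, day 2 gave 1 to 4 calls (1 without control replicate 1), day 8 gave 4 to 10 (10 without 80 ppb replicate 2) and the combined test 7 to 15 (7 without 80 ppb day 8 replicate 4). The change between days and the difference between leaf positions stayed at 0. The 100 against 80 ppb test gave 2336 to 5963, with 2563 without 100 ppb day 2 replicate 1, 2348 without 100 ppb day 8 replicate 1 and 2336 without its replicate 4. Of the 12 genes, 5 to 10 passed on day 13 in expanded leaves and 2 to 4 in growing leaves. The share of higher genes, over these few calls, was 33.3% on day 2 as reported and 50% with equal totals, and 80% on day 8 as reported and 60% with a pseudocount of 8; it also moved under other alternatives, to 100% on both days with the leaves of days 2 and 8 alone and to 40% on day 8 without 80 ppb replicate 2.

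Same-numbered libraries shared little of their deviation from the group mean. The correlations were -0.11 to -0.03 on day 2 and -0.06 to 0.20 on day 8, with the own number best for 2 of 8. With so few libraries, this cannot decide whether the numbers pair the samples. With a replicate block, day 2 gave 3 calls, day 8 gave 6, the combined test 11 (10 of the 12 among them), the change between days 0, 100 against 80 ppb 5283 and the difference between leaf positions 0. Depth limits low genes such as Potri.001G123300, where 7 reads stood in control leaves of day 8.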
